A study of Drosophila melanogaster with 17 samples.

Results

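Of the 17490 rows of the expression table, 103 were genes that FlyBase knows only by an annotation number (a CG symbol, with no given name) and that were restricted to enteroendocrine cells (EEs) in sorted cells of the adult Drosophila midgut. They were chosen by measured levels: at least 10 RPKM (read counts divided by gene length and by the library's read total) in each of the 3 EE libraries, and a mean EE level at least 8 times the mean of the progenitor libraries and at least 8 times the mean of the libraries labelled EC. Another 125 rows with a given name and 1 row without a symbol met the same levels, and 6007 rows carried a CG symbol. The levels in EE, EC and ESG therefore describe the choice and were not tested.

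The 17 libraries came from midguts of flies at adult day 3, from each of which about 10000 GFP-labelled cells were sorted and the RNA amplified. The 5 groups were EE (wild type, n = 3), EC (wild type, n = 3), Sox100B-OE (progenitors with Sox100B overexpression, n = 3), Sox100B-RNAi (progenitors with Sox100B knocked down by RNA interference, n = 3) and ESG (wild type progenitors, n = 5). The EC libraries carry 2 conflicting labels, enterocyte as the cell type and enteroblast as the source. The labels give neither the driver of the GFP or the transgenes nor the RNAi line, and nothing says whether replicates came from separate animals, so p-values measure only the spread between these libraries.

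EEs are the hormone-secreting cells of the gut epithelium. They arise from intestinal stem cells under the homeodomain factor Pros, and subtypes of class I and class II secrete different sets of peptides, Allatostatins in the first and Tachykinin and NPF in the second. Sox100B is an HMG-box transcription factor of the SoxE family, and the comparisons of the Sox100B groups ask what its level in progenitors does to gene expression.

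The wild type and the Sox100B libraries were not listed alike. The read totals implied by the table were 17400000 to 29400000 in the 6 Sox100B libraries and 24100000 to 59500000 in the 11 wild type libraries. The share of these reads assigned to annotated genes was 94.5 to 95.1% in the Sox100B libraries and 62.4 to 77.2% in the wild type libraries. These shares do not cover the same genes. In each wild type library all assigned reads lay in nuclear genes, whereas in each Sox100B library some lay in genes that are not nuclear. Counting nuclear genes only brings the Sox100B shares down to near the wild type range. Genes that share exonic bases with a neighbour on the opposite strand had a median log2 fold change of 0.77 for Sox100B-OE over ESG and 0.79 for Sox100B-RNAi over ESG, against -0.0019 and -0.03 for genes that share none. Treatment and this difference in processing cannot be told apart in any comparison with ESG. Sox100B-OE and Sox100B-RNAi were listed alike, and their comparison uses no library that chose the genes.

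Sox100B itself had 105, 85.5 and 144 RPKM in the libraries labelled Sox100B-OE, 32.1, 34.4 and 20.3 RPKM in Sox100B-RNAi and 77.3, 69.7, 97.9, 174 and 183 RPKM in ESG. It was lower in Sox100B-RNAi than in ESG (log2 fold change -1.94 ± 0.36, SE, adjusted p = 0.00187) and higher in Sox100B-OE than in Sox100B-RNAi (1.91 ± 0.28, adjusted p = 0.00127). Over ESG the libraries labelled Sox100B-OE had a log2 fold change of -0.03 ± 0.36 (adjusted p = 0.963), so the overexpression given in their label did not show in the level of this gene, and they are called here the libraries labelled Sox100B-OE.

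In EEs the 103 genes spanned almost 3 orders of magnitude, with means of 12.6 to 11286 RPKM and a median of 42.4 RPKM. The mean level was above 1000 RPKM for 7 genes, between 100 and 1000 RPKM for 26 and below that for 70. The median over the genes of the mean level was 1.67 RPKM in EC, 2.89 RPKM in the libraries labelled Sox100B-OE, 2.74 RPKM in Sox100B-RNAi and 1.91 RPKM in ESG. The EE mean was 8.04 to 354 times the higher of the EC and ESG means, with a median of 17.2. In 101 of the 103 genes every EE library was above every EC and ESG library, the exceptions being CG16826 and CG33109. The choice of the genes by these same levels favoured this, and the share over all genes was not counted. All 103 were protein coding and matched a RefSeq gene.

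**Figure D1:**
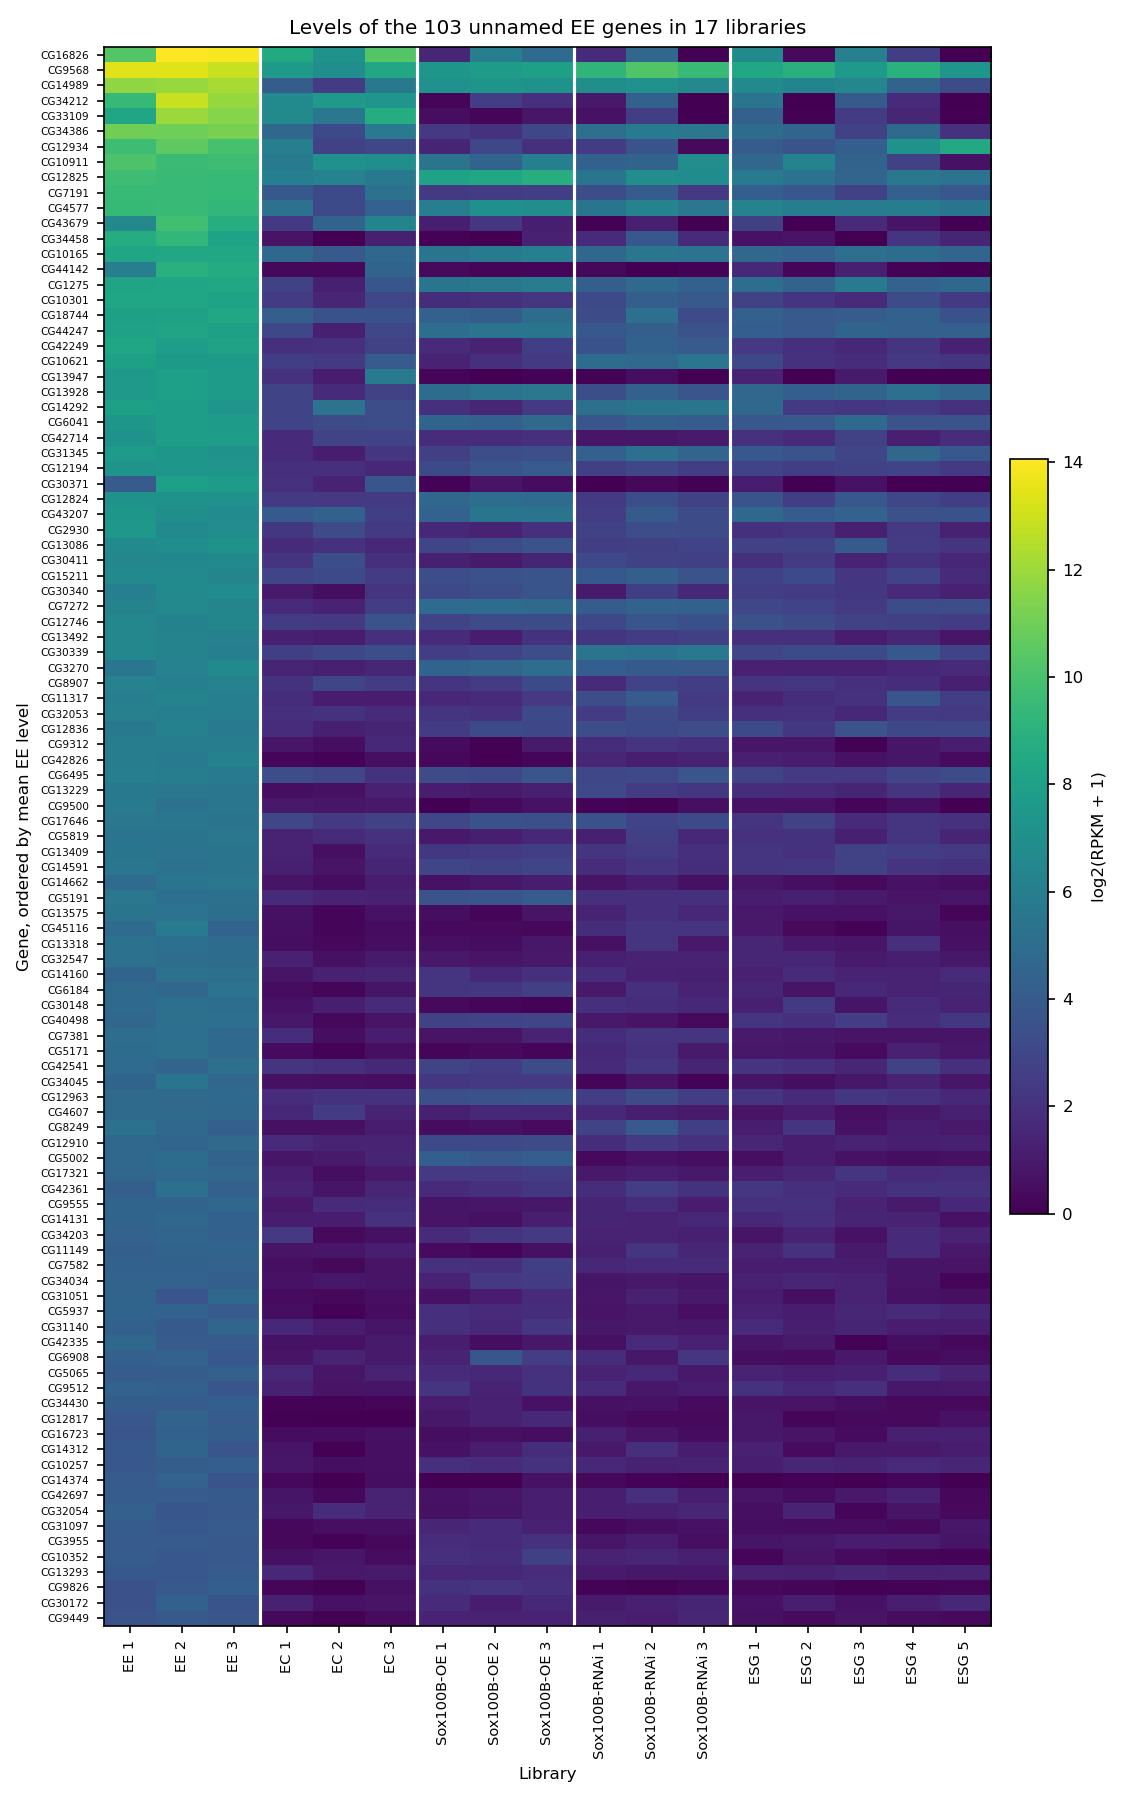
Heat map of log2(RPKM + 1) for the 103 genes (rows, ordered by mean EE level) in the 17 libraries (columns, by group, white lines between groups). The EE columns are the brightest (except for CG16826 and CG33109, where EC 3 is above EE 1), and a few rows are darker in EE 1 than in EE 2 and EE 3, such as CG16826 with 1243, 17107 and 15508 RPKM.

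The 10 genes highest in EEs were CG16826, CG9568, CG14989, CG34212, CG33109, CG34386, CG12934, CG10911, CG12825 and CG7191. CG9568 had 11032, 10536 and 7467 RPKM in EE, 196, 119.8 and 342 RPKM in EC and 338, 481, 185, 504 and 167 RPKM in ESG. CG14989 had 3417, 3769.7 and 4689.9 RPKM in EE, 16.6, 4.41 and 50.7 RPKM in EC and 103.2, 79.5, 90.1, 20.9 and 8.15 RPKM in ESG. CG34386 had 2060.1, 1986 and 2331 RPKM in EE, 26.2, 7.88 and 54.7 RPKM in EC and 30.7, 22.6, 5.58, 28.5 and 3.04 RPKM in ESG. The 3 EE libraries were alike for these genes, whereas the ESG libraries differed: CG14989 was lowest in ESG 4 and 5, and CG34386 was lowest in ESG 3 and 5. CG12934 went the other way, with 841, 1545 and 1016 RPKM in EE, 63.5, 5.51 and 6.97 RPKM in EC and 16.2, 11.1, 17.5, 147 and 359.8 RPKM in ESG, so that ESG 4 and 5 were the high ones. CG10911 had 1124, 755 and 835 RPKM in EE, 55.9, 139 and 129 RPKM in EC and 23.6, 80.7, 21.5, 5.71 and 0.611 RPKM in ESG. CG7191 had 746, 738 and 693 RPKM in EE, 13.7, 7.85 and 38.3 RPKM in EC and 17.2, 13.2, 5.77, 18.7 and 12.999 RPKM in ESG. None of these EE values overlapped those of EC or ESG, which the choice of the genes favoured.

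The most selective gene was CG34458, which RefSeq also lists as SP118, a name of the serine protease family. It had 425, 635 and 289.8 RPKM in EE, 0.652, 0 and 1.39 RPKM in EC and 0.607, 0.673, 0, 3.38 and 1.69 RPKM in ESG. The next by the ratio of the EE mean to the higher of the EC and ESG means were CG34386 at 71.8, CG14374 at 71.1, CG42249 at 70.9 and CG42826 at 70.3. CG14374 was much less abundant than the others, with 15.5, 20.6 and 11.2 RPKM in EE, 0.250, 0 and 0.414 RPKM in EC and 0, 0.0922, 0, 0.166 and 0 RPKM in ESG. Also among the 10 highest ratios were CG45116 at 66.6, CG14989 at 65.6, CG10301 at 64.1, CG13575 at 59.8 and CG9826 at 57.9.

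At the thresholds of the choice the genes just inside and just outside were close. CG30172 was inside with a lowest EE library of 10.04 RPKM, and CG1544 outside with 9.61 RPKM. CG12836 was inside with an EE mean 8.06 times the ESG mean, and CG42450 outside at 7.88 times. CG17646, which RefSeq also lists as ABCG1, an ABC transporter name, was inside with an EE mean 8.04 times the EC mean, and CG9396 outside at 7.53 times. With a fold of 4 in place of 8 the rule gave 170 genes, and with 16 it gave 56.

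Most genes were even across the EE libraries. The highest EE library was less than 2 times the lowest in 92 genes, and in 97 genes it was at most 2.53 times the lowest. The other 6, CG16826, CG34212, CG33109, CG43679, CG44142 and CG30371, differed 7.52 to 15.7 times, and EE 1 was the lowest and EE 2 the highest library in each. CG43679, CG44142 and CG30371 are named for this spread, after their values were seen. RefSeq also lists CG30371 as SP80, another serine protease name.

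CG16826 had 1243, 17107 and 15508 RPKM in EE, 378, 148 and 1259 RPKM in EC and 106, 0.297, 69.9, 4.87 and 0 RPKM in ESG. CG33109 had 320.1, 3902 and 2869 RPKM in EE, 101, 47.5 and 415 RPKM in EC and 18.6, 0.0402, 4.70, 1.85 and 0.0405 RPKM in ESG. In both, EC 3 was above EE 1. CG34212 had 674, 7580.4 and 3596 RPKM in EE, 100.04, 188 and 161 RPKM in EC and 41.9, 0, 14.9, 2.18 and 0 RPKM in ESG. CG30371 had 15.5, 244 and 212 RPKM in EE, 3.08, 1.499 and 12.6 RPKM in EC and 1.09, 0.0327, 0.599, 0.0295 and 0 RPKM in ESG. The 6 genes shared their high and low libraries beyond EE as well, ESG 1 being the highest ESG library in 6 of 6 and EC 3 the highest EC library in 5 of 6. Of the 6, 4 passed the filter on low values in at least 1 Sox100B comparison, where limma called 0 of them and 1 had an unadjusted p below 0.05 (CG43679). Their Sox100B libraries differed widely too, as for CG34212 with 0.122, 4.98 and 2.84 RPKM in the libraries labelled Sox100B-OE and 0.934, 19.6 and 0 RPKM in Sox100B-RNAi. The summed level of 11 enterocyte markers was 671, 369 and 1221 RPKM in EE 1, 2 and 3, with EE 2 the lowest. The summed level of 4 hemocyte markers was 1.69, 9.10 and 2.10 RPKM in EE 1, 2 and 3. EE 1 was thus the lowest and EE 2 the highest, as in the 6 genes. In this sum, however, EE 3 was close to EE 1. In the 6 genes EE 3 was well above EE 1, as for CG30371 with 212 RPKM against 15.5 RPKM. In ESG the sum was 3.10, 2.08, 2.04, 0.712 and 0.745 RPKM, with ESG 1 the highest, as in the 6 genes. In EC it was 5.59, 4.10 and 1.79 RPKM, with EC 3 the lowest, whereas EC 3 was the highest in 5 of the 6. It was 0.367, 0.325 and 0.537 RPKM in the libraries labelled Sox100B-OE and 2.98, 2.92 and 6.27 RPKM in Sox100B-RNAi. Library 2 was the lowest in both, whereas it was the highest in 4 and 5 of the 6 genes. The hemocyte marker He was at 0 in EE 1 and in ESG. The part of enterocyte or hemocyte RNA in the spread was not tested.

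**Figure D2:**
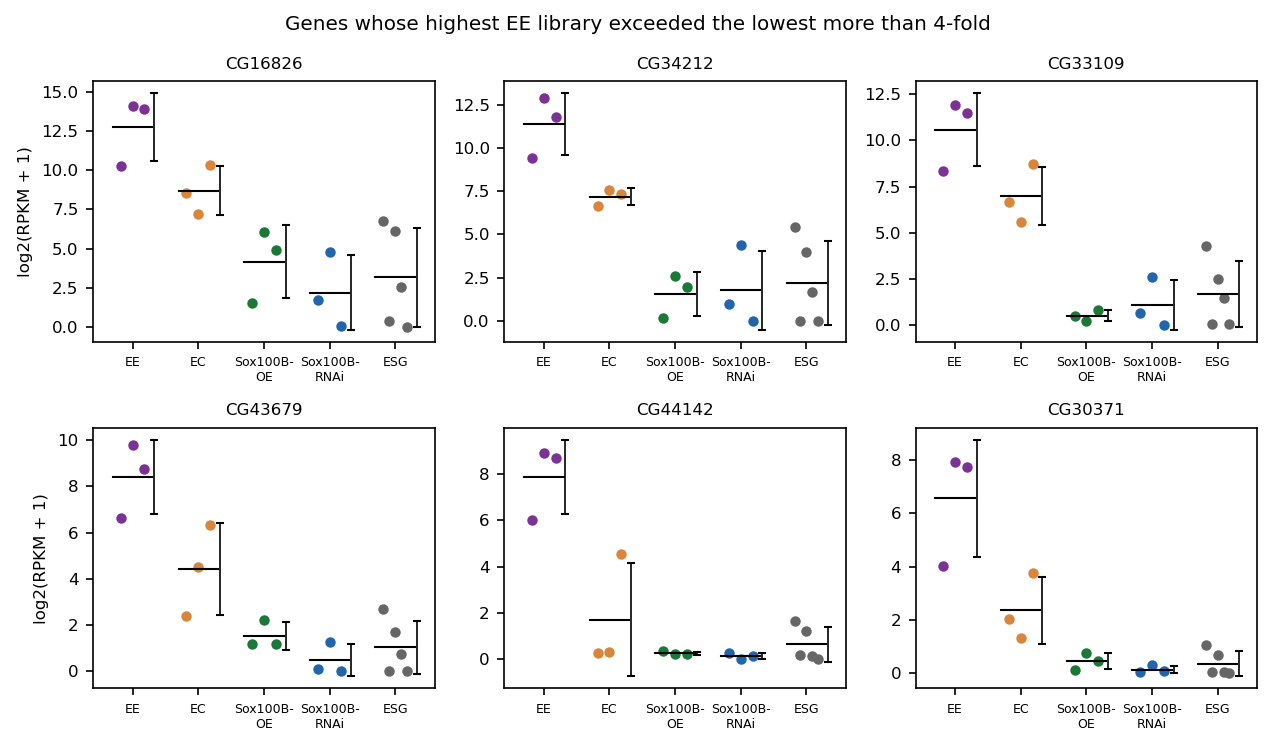
Levels on the log2(RPKM + 1) scale of the 6 genes whose highest EE library was more than 4 times the lowest. Points are libraries in replicate order, horizontal lines are means and bars are SD (n = 3, for ESG n = 5). The first EE point lies below the other two in each panel, as for CG30371 with 15.5, 244 and 212 RPKM.

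By position, chromosome arm 2R held the most of the genes. On chromosome arm 2R lay 36 of the 103 (34.95%), against 20.2% of all rows with a CG symbol. A further 27 lay on 3R, 16 on 2L, 14 on 3L and 10 on X. No exonic base was shared with another gene in 83 (80.6%), against 54.4% of rows with a CG symbol and a mean of at least 1 RPKM. For 17 genes bases were shared only with the opposite strand and for 3 with the same strand. Their levels are less certain, since the counting is not stated to use strand. The median exonic length was 1491 bases, against 1589 bases for 2699 other CG rows at a mean of at least 1 RPKM. These shares are descriptions, with no test.

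In total 18 genes lay within 20 kb of another of the 103, in the places of the BDGP6 annotation listed here. The share of other genes with such a neighbour was not counted. On 2R, CG12825 (chr2R:7789206-7789988) and CG12824 (chr2R:7790368-7791170) were 379 bases apart on the same strand. Also on 2R, CG30340 (chr2R:9599909-9601252) and CG30339 (chr2R:9601431-9602901) were 178 bases apart on the same strand. On 3L, CG14160, CG32053, CG32054 and CG42826 lay in a row on 1 strand between 10086747 and 10100881. The other places were held by CG9555 and CG9568 on 2L, CG14591 with CG34212 and CG10911 with CG34386 on 2R, CG34034 and CG42335 on 3R, and CG2930 and CG42541 on X.

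The genes stayed below their EE level in progenitors of either Sox100B group. In every one of the 103 genes the 3 EE libraries were above all 6 Sox100B libraries. The choice of the genes by high EE and low wild type progenitor levels favoured this, and the share over all genes was not counted. The median over the genes ran from 2.41 to 3.74 RPKM in the libraries labelled Sox100B-OE, from 2.08 to 3.38 RPKM in Sox100B-RNAi and from 1.598 to 2.34 RPKM in ESG. The mean level was under an eighth of the EE mean in 67 genes in the libraries labelled Sox100B-OE and in 87 genes in Sox100B-RNAi. It reached 50% of the EE mean for 1 gene in each group, CG5002 in the libraries labelled Sox100B-OE (63.2% of the EE mean) and CG30339 in Sox100B-RNAi (55.4%). In sorted bulk cells, fewer EE-like cells and less RNA per cell cannot be told apart.

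**Figure D3:**
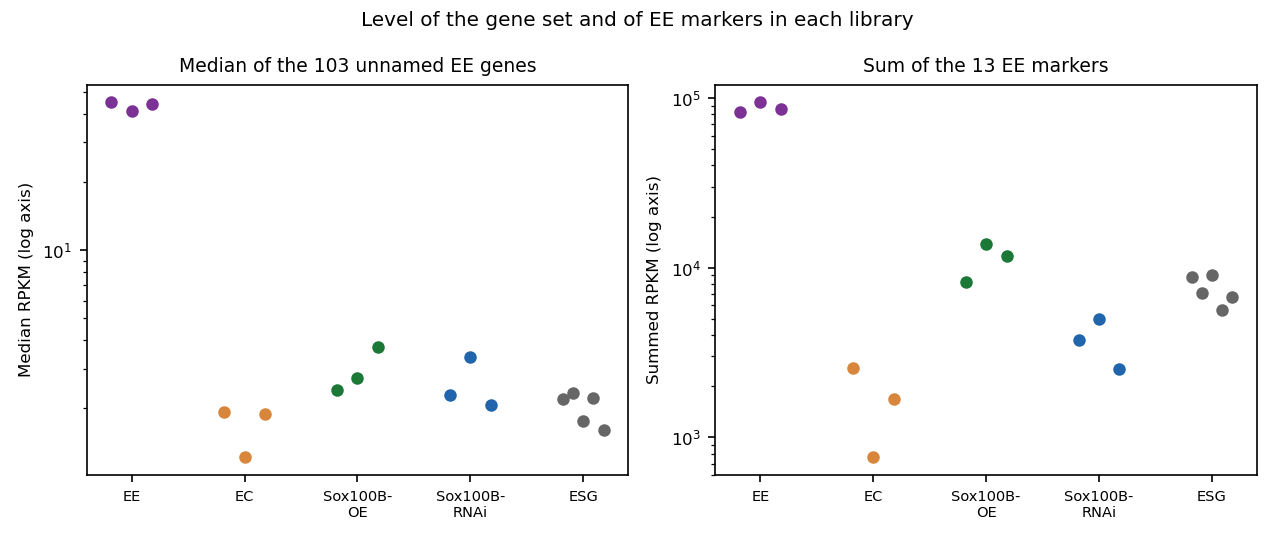
Left, the median RPKM of the 103 genes in each library, and right, the summed RPKM of 13 EE markers, both on log axes. Points are libraries in replicate order. The marker sum is 8264 to 13775 RPKM in the libraries labelled Sox100B-OE and 2521 to 4989 RPKM in Sox100B-RNAi, an order that is lost without NPF, whereas the medians of the 103 genes overlap between these groups.

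Between the Sox100B groups the 103 genes split into opposite directions. Of the 92 genes that passed the filter on low values (at least 1 RPKM in 3 of the 6 libraries), 39 were called at an adjusted p below 0.01 and a log2 fold change beyond 0.5 in limma. Over Sox100B-RNAi, 19 were higher in the libraries labelled Sox100B-OE and 20 were lower. Over all 8848 genes tested 16% were called, 10.5% higher and 5.56% lower, against 20.7% higher and 21.7% lower of the 92. Some of the 92 passed the filter only through the group where they were high, which can raise the share called. With no filter 9.71% of the 103 were higher and 11.7% lower, against 4.84% and 1.92% of all genes tested. The median log2 fold change was 0.22 over the 92 genes and -0.04 over all genes tested. Of the named EE genes at the same levels, 27.8% were higher and 13.9% lower. When only nuclear genes that share no exonic base were tested and rescaled, 15 of 78 were higher (10.6% of all genes tested in this way) and 18 were lower (8.04% of all). A difference between the named and the unnamed genes was not tested.

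Some EE markers differed between these groups, in both directions. The 13 markers (the transcription factor pros, peptide hormones and secretion genes) summed to 8264 to 13775 RPKM in the libraries labelled Sox100B-OE, 2521 to 4989 RPKM in Sox100B-RNAi and 5658 to 9035 RPKM in ESG, and all 13 were detected in each Sox100B library. NPF decided this order: the other 12 summed to 1666, 2857 and 2715 RPKM in the libraries labelled Sox100B-OE and 3257, 3379.8 and 2446 RPKM in Sox100B-RNAi, where the groups overlapped. Between the Sox100B groups 4 of the 13 were higher in the libraries labelled Sox100B-OE (NPF, Tk, 7B2 and amon) and 4 lower (AstA, CCHa1, CCHa2 and Mip). Marker sums of other cell types moved as well, 11 of 12 enterocyte markers summing to 389 to 554 RPKM in the libraries labelled Sox100B-OE, 84.4 to 476 RPKM in Sox100B-RNAi and 122 to 381 RPKM in ESG. The 5 enteroblast markers summed to 1041 to 1426 RPKM in the libraries labelled Sox100B-OE, 1428 to 2895 RPKM in Sox100B-RNAi and 391 to 1281 RPKM in ESG. The 4 hemocyte markers summed to 0.325 to 0.537 RPKM in the libraries labelled Sox100B-OE, 2.92 to 6.27 RPKM in Sox100B-RNAi and 0.712 to 3.10 RPKM in ESG, most of it from Sr-CI, while He was at 0 in each library labelled Sox100B-OE and in ESG. The 6 visceral muscle markers summed to 1.87 to 2.78 RPKM in the libraries labelled Sox100B-OE, 0.409 to 0.559 RPKM in Sox100B-RNAi and 0.706 to 1.84 RPKM in ESG. Of 11 peptide hormones tested, 4 were higher, namely NPF, Orcokinin, ITP and Tk, and 5 were lower, namely AstA, CCHa1, CCHa2, Mip and sNPF. NPF averaged 8830 RPKM in the libraries labelled Sox100B-OE and 726 RPKM in Sox100B-RNAi, and AstA averaged 23.9 RPKM in the libraries labelled Sox100B-OE and 411 RPKM in Sox100B-RNAi. Of 18 genes of regulated secretion tested, 7 were called, each of them higher in the libraries labelled Sox100B-OE. The part of these cell types and of EE subtype in the results on the 103 genes was not tested.

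**Figure D4:**
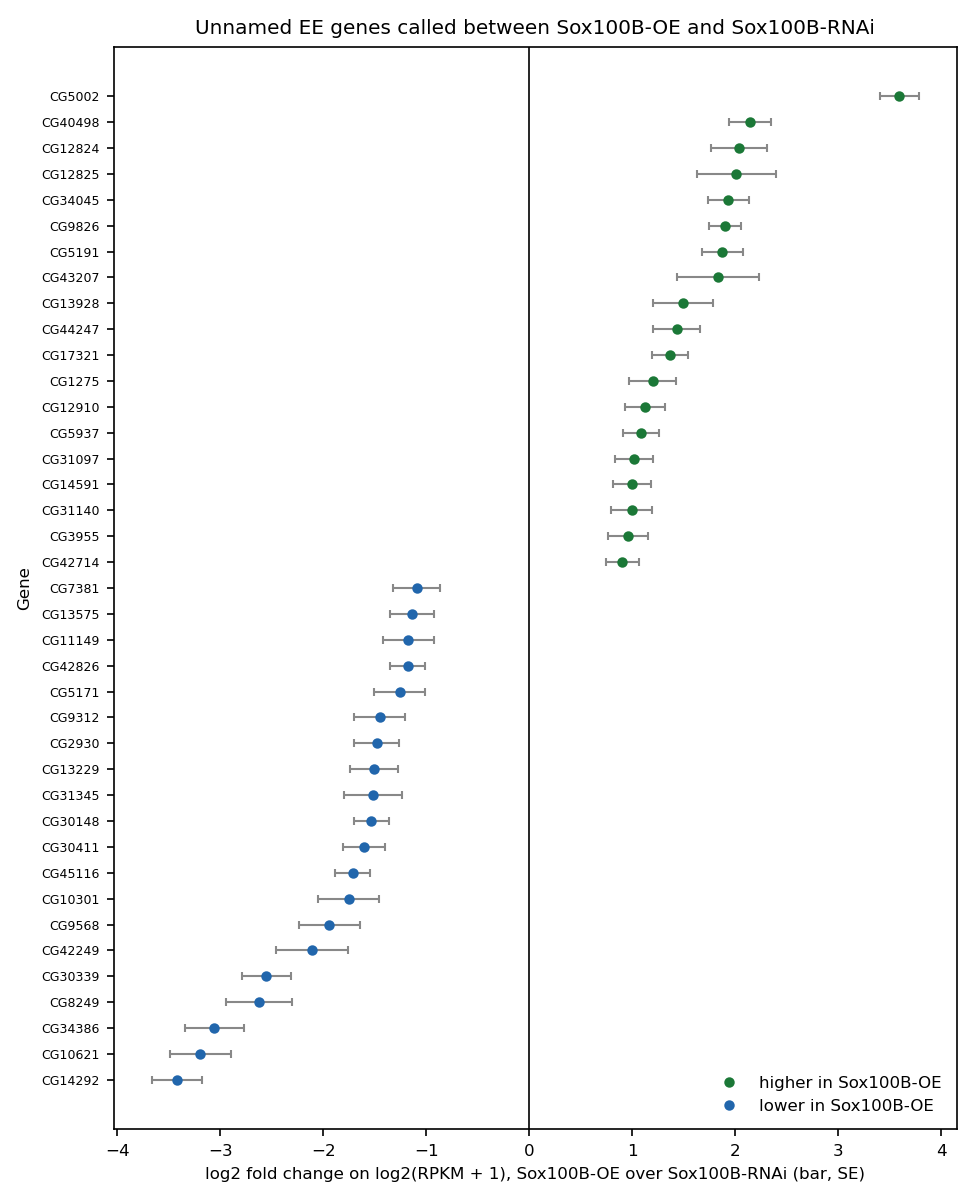
Log2 fold change of the libraries labelled Sox100B-OE over Sox100B-RNAi for the 39 genes called (points, ordered by value), with limma's SE as bars. The 19 higher genes reach 3.59 (CG5002) and the 20 lower genes reach -3.42 (CG14292).

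CG5002 was the gene with the largest rise. It had 17.1, 14.0 and 17.4 RPKM in the libraries labelled Sox100B-OE, 0.260, 0.587 and 0.426 RPKM in Sox100B-RNAi and 0.502, 1.11, 0.603, 0.446 and 0.560 RPKM in ESG, a log2 fold change over Sox100B-RNAi of 3.59 ± 0.19, SE, adjusted p = 6.34e-06. The 3 libraries labelled Sox100B-OE thus averaged 63.2% of the EE mean (EE libraries, 25.5, 29.98 and 21.3 RPKM), and each of the 8 other progenitor libraries was at or below 1.11 RPKM. CG9826 had 3.21, 3.27 and 2.88 RPKM in the libraries labelled Sox100B-OE, 0.106, 0.0400 and 0.162 RPKM in Sox100B-RNAi and 0.213, 0.157, 0.0718, 0.106 and 0.178 RPKM in ESG (1.90 ± 0.16, SE, adjusted p = 6.45e-05 over Sox100B-RNAi). Its levels in Sox100B-RNAi rest on 18 reads over the 3 libraries. CG5002 and CG9826 passed the filter only through the libraries labelled Sox100B-OE.

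The neighbours CG12825 and CG12824 were both higher. CG12825 had 285, 349.7 and 425 RPKM in the libraries labelled Sox100B-OE, 44.0, 124 and 115.2 RPKM in Sox100B-RNAi and 55.2, 37.5, 23.0, 48.3 and 40.0 RPKM in ESG (2.01 ± 0.39, SE, adjusted p = 0.00513 over Sox100B-RNAi). CG12824 had 24.7, 33.1 and 29.0 RPKM in the libraries labelled Sox100B-OE, 4.30, 9.51 and 5.85 RPKM in Sox100B-RNAi and 11.6, 5.12, 13.1, 7.02 and 5.21 RPKM in ESG (2.03 ± 0.27, SE, adjusted p = 0.000854). For both genes Sox100B-RNAi 1 was the lowest of the 6 Sox100B libraries, and the groups did not overlap.

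CG5191 had 10.98, 12.1 and 16.01 RPKM in the libraries labelled Sox100B-OE, 2.83, 2.80 and 2.75 RPKM in Sox100B-RNAi and 1.20, 1.36, 0.985, 0.658 and 0.798 RPKM in ESG (1.87 ± 0.20, SE, adjusted p = 0.000229 over Sox100B-RNAi). CG40498 had 5.47, 6.08 and 6.63 RPKM in the libraries labelled Sox100B-OE, 0.936, 0.650 and 0.279 RPKM in Sox100B-RNAi and 3.45, 2.65, 4.77, 2.49 and 3.85 RPKM in ESG (2.14 ± 0.20, SE, adjusted p = 0.000132). CG34045 had 3.68, 4.26 and 3.95 RPKM in the libraries labelled Sox100B-OE, 0.192, 0.649 and 0.117 RPKM in Sox100B-RNAi and 0.767, 0.425, 0.842, 1.66 and 0.785 RPKM in ESG (1.93 ± 0.20, SE, adjusted p = 0.000188). ESG lay below both Sox100B groups for CG5191 and its mean lay between theirs for CG40498 and CG34045. The other 12 higher genes had log2 fold changes of 0.90 (CG42714) to 1.83 (CG43207). They were CG43207, CG13928, CG44247, CG17321, CG1275, CG12910, CG5937, CG31097, CG14591, CG31140, CG3955 and CG42714. RefSeq also lists CG1275 as Cyt-b561-1, a cytochrome name, and CG31140 as DGKt, a diacylglycerol kinase name. CG1275 had 42.4, 51.3 and 58.0 RPKM in the libraries labelled Sox100B-OE and 17.97, 27.5 and 19.6 RPKM in Sox100B-RNAi.

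Among the 20 lower genes CG14292 had the largest fall. It had 2.76, 1.87 and 4.04 RPKM in the libraries labelled Sox100B-OE, 34.9, 42.0 and 42.1 RPKM in Sox100B-RNAi and 25.8, 4.32, 3.72, 4.18 and 3.01 RPKM in ESG, a log2 fold change over Sox100B-RNAi of -3.42 ± 0.24, SE, adjusted p = 2.97e-05. CG10621 had 1.67, 2.73 and 4.22 RPKM in the libraries labelled Sox100B-OE, 30.5, 26.7 and 44.6 RPKM in Sox100B-RNAi and 7.41, 2.96, 2.50, 4.10 and 3.44 RPKM in ESG (-3.19 ± 0.30, SE, adjusted p = 0.000117). In both genes Sox100B-RNAi was the high group, and ESG was near the libraries labelled Sox100B-OE, with the exception of ESG 1 for CG14292.

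CG34386 had 4.12, 3.19 and 7.06 RPKM in the libraries labelled Sox100B-OE, 35.9, 56.1 and 46.5 RPKM in Sox100B-RNAi and 30.7, 22.6, 5.58, 28.5 and 3.04 RPKM in ESG (-3.06 ± 0.29, SE, adjusted p = 0.000123 over Sox100B-RNAi). CG9568, the second most abundant in EEs, had 171, 209 and 251 RPKM in the libraries labelled Sox100B-OE, 588, 1203 and 723 RPKM in Sox100B-RNAi and 338, 481, 185, 504 and 167 RPKM in ESG (-1.94 ± 0.29, SE, adjusted p = 0.00158). CG8249 had 0.381, 0.570 and 0.327 RPKM in the libraries labelled Sox100B-OE, 6.27, 14.1 and 5.09 RPKM in Sox100B-RNAi and 1.11, 3.46, 0.603, 1.18 and 0.943 RPKM in ESG (-2.62 ± 0.32, SE, adjusted p = 0.000496). Sox100B-RNAi lay above both other groups in these 3 genes.

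CG30339 reached the highest share of its EE level among the 20, with 4.82, 6.02 and 8.93 RPKM in the libraries labelled Sox100B-OE, 41.6, 37.9 and 48.4 RPKM in Sox100B-RNAi and 6.64, 7.85, 8.06, 13.4 and 6.08 RPKM in ESG (-2.55 ± 0.24, SE, adjusted p = 0.000132 over Sox100B-RNAi). Its neighbour CG30340 differed in the other direction without passing the threshold, with 7.68, 8.88 and 11.6 RPKM in the libraries labelled Sox100B-OE and 0.995, 5.002 and 1.99 RPKM in Sox100B-RNAi (1.64 ± 0.37, SE, adjusted p = 0.0115). CG42249 had 2.16, 1.4998 and 5.04 RPKM in the libraries labelled Sox100B-OE and 10.5, 19.5 and 15.3 RPKM in Sox100B-RNAi (-2.11 ± 0.35, SE, adjusted p = 0.00253). The other 13 lower genes had log2 fold changes of -1.75 (CG10301) to -1.09 (CG7381). They were CG10301, CG45116, CG30411, CG30148, CG31345, CG13229, CG2930, CG9312, CG5171, CG42826, CG11149, CG13575 and CG7381. RefSeq also lists CG31345 as CBP9, a calcium-binding protein name.

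**Figure D5:**
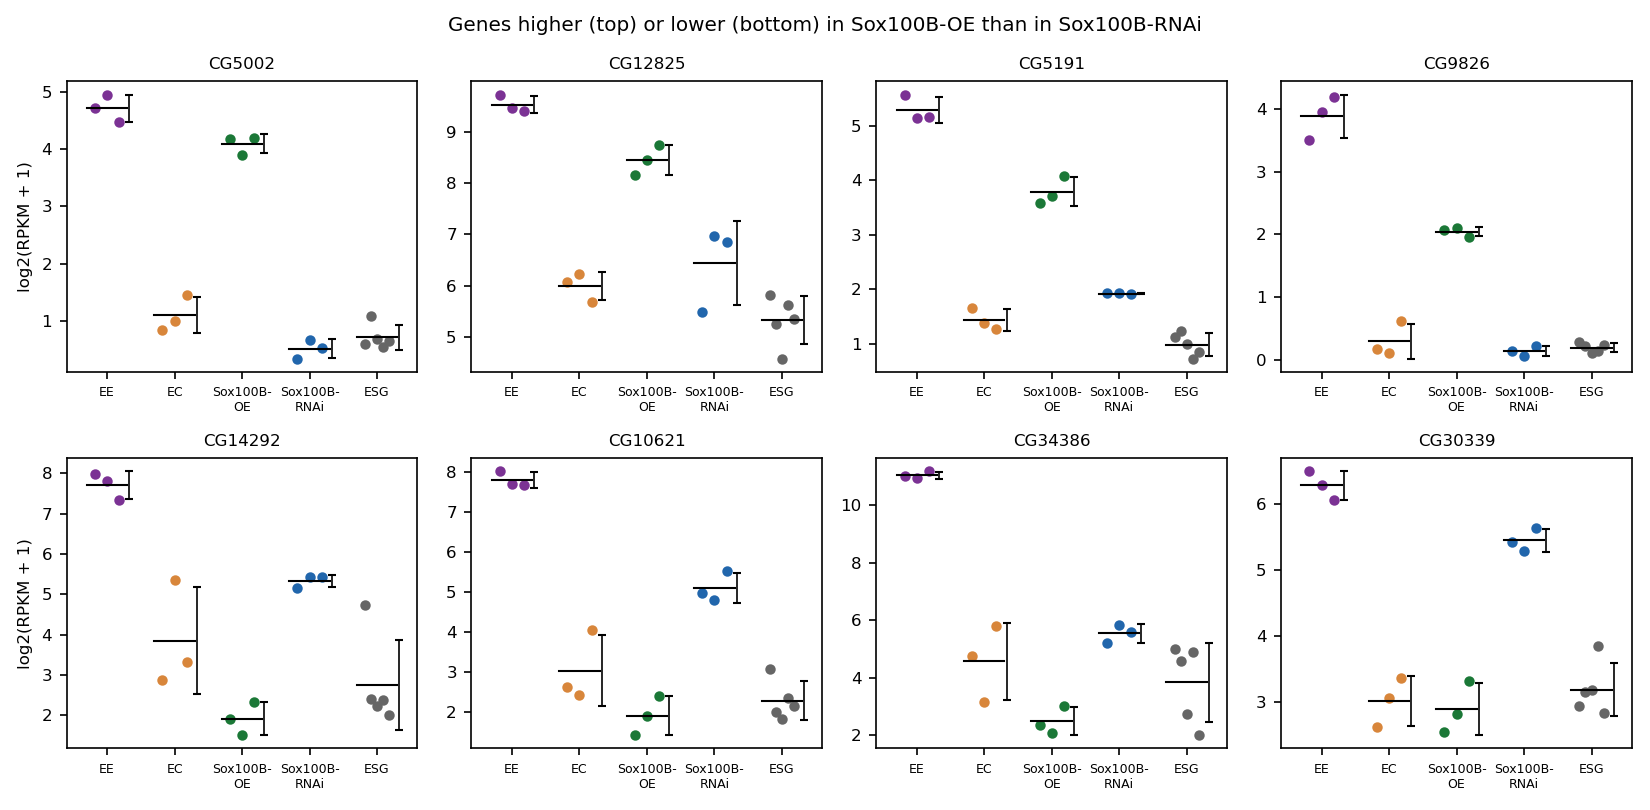
Levels on the log2(RPKM + 1) scale of 4 genes higher (top row) and 4 genes lower (bottom row) in the libraries labelled Sox100B-OE than in Sox100B-RNAi. Points are libraries, horizontal lines are means and bars are SD (n = 3, for ESG n = 5). CG5002 reaches 63.2% of its EE mean in the libraries labelled Sox100B-OE, at 17.1, 14.0 and 17.4 RPKM, and CG30339 reaches 55.4% in Sox100B-RNAi, at 41.6, 37.9 and 48.4 RPKM.

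The ESG mean lay between the means of the Sox100B groups for 15 of the 19 higher and 18 of the 20 lower genes. The ESG levels entered the choice of the genes, and ESG differs from the Sox100B libraries in processing. These genes were also picked for a gap between the Sox100B groups. The share over all genes called was not counted, and a graded response was not tested. In the 19 higher genes the median share of the EE mean was 17.4% in the libraries labelled Sox100B-OE, 4.70% in Sox100B-RNAi and 6.26% in ESG. For the 20 lower genes it was 1.33% in the libraries labelled Sox100B-OE, 8.23% in Sox100B-RNAi and 2.72% in ESG. Exonic bases were shared with no other gene in 17 of the 19 and 18 of the 20.

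At the depth of these libraries some low levels rest on few reads. The group with the lower mean held a median of 195 reads summed over its 3 libraries in the 39 genes, but under 30 reads in 7 of them, the fewest being 7 reads for CG45116. Fewer genes were called when any 1 library was left out: 13, 12 and 18 genes without Sox100B-OE 1, 2 and 3, and 23, 32 and 19 genes without Sox100B-RNAi 1, 2 and 3. The parts of the number of libraries, of the library left out and of the filter were not tested. In every alternative 3 higher genes (CG12824, CG17321 and CG5191) and 5 lower genes (CG10621, CG14292, CG30339, CG30411 and CG34386) stayed called where they passed its filter, each of the 6 left-out libraries included. Another 5 higher genes (CG5002, CG34045, CG40498, CG5937 and CG9826) and 3 lower genes (CG30148, CG45116 and CG8249) passed the filter only through their high group. For these, 3 of the 6 left-out libraries gave no test, and their calls in the other alternatives are no sign of stability. CG31097, CG31140, CG11149, CG13575, CG42826 and CG5171 also passed it only through their high group, and lost their call in at least 1 alternative.

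The comparisons with ESG are given as a description with no p-values for the 103 genes, because the choice of the genes required low levels in the same ESG libraries. Against ESG, 22 of the 103 genes were past the limma thresholds as higher in the libraries labelled Sox100B-OE and 3 as lower, of 84 that passed the filter. Over all 8918 genes tested 33.7% were called, 28.9% higher and 4.83% lower. The median log2 fold change was 0.50 over the 84 genes and 0.26 over all genes tested, and under median-of-ratios scaling the median over all genes was 0.01 and the calls were 18 higher and 4 lower. When only nuclear genes that share no exonic base were tested and rescaled, 11 of the 80 tested were called, each of them higher, against 8.4% higher and 4.39% lower of all genes tested in this way. The number called was 15, 9 and 10 without Sox100B-OE 1, 2 and 3.

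The largest positive log2 fold changes over ESG were those of CG5002 (3.39 ± 0.16, SE), CG3270, CG12825, CG5191 and CG6908. CG3270 had 22.3, 23.5 and 31.1 RPKM in the libraries labelled Sox100B-OE, 17.7, 14.6 and 14.1 RPKM in Sox100B-RNAi and 1.49, 1.45, 1.45, 2.07 and 2.26 RPKM in ESG, a log2 fold change over ESG of 3.28 ± 0.18, SE and of 2.59 ± 0.18, SE for Sox100B-RNAi over ESG. It shares 74 exonic bases with Mob4 on the opposite strand, so that its higher level in both Sox100B groups cannot be told apart from the difference in processing. CG12825 and CG5191, which share no exonic base, had log2 fold changes over ESG of 3.12 ± 0.28, SE and 2.81 ± 0.18, SE. CG6908 had 1.64, 12.4 and 4.90 RPKM in the libraries labelled Sox100B-OE and 0.413, 0.372, 0.942, 0.284 and 0.432 RPKM in ESG (2.01 ± 0.43, SE), the second library being the high one. The 3 lower genes were CG7191 (-1.30 ± 0.32, SE), CG30148 (-1.27 ± 0.31, SE) and CG11149 (-0.97 ± 0.24, SE), the last also listed in RefSeq as dibeta3GnT4. CG7191 had 4.22, 4.52 and 5.04 RPKM in the libraries labelled Sox100B-OE and 17.2, 13.2, 5.77, 18.7 and 12.999 RPKM in ESG. Each of the 3 was no longer past the thresholds under at least 1 alternative.

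In Sox100B-RNAi 19 of the 90 genes that passed the filter were past the thresholds as higher than in ESG and 1 as lower, again with ESG levels that the choice of the genes had used. Over all 8675 genes tested 25.3% were called, 23% higher and 2.26% lower. The median log2 fold change was 0.26 over the 90 genes and 0.20 over all genes tested. When only nuclear genes that share no exonic base were tested and rescaled, 5 of 77 were higher and 1 was lower, against 2.62% and 0.854% of all genes tested in this way. Without Sox100B-RNAi 1, 2 and 3 the number called was 8, 6 and 7, and with ESG 4 and 5 alone as the wild type it was 13.

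The largest positive log2 fold changes in Sox100B-RNAi over ESG were those of CG10621 (2.82 ± 0.30, SE), CG3270, CG14292 (2.59 ± 0.55, SE), CG30339 (2.25 ± 0.25, SE) and CG42249 (2.12 ± 0.28, SE). Apart from CG3270, which shares bases with Mob4, these are genes that were lower in the libraries labelled Sox100B-OE than in Sox100B-RNAi. CG14292 was no longer past the thresholds, among other settings, with ESG 1 to 3 alone as the wild type. CG40498 was the 1 gene lower in Sox100B-RNAi than in ESG (-1.45 ± 0.22, SE), with 0.936, 0.650 and 0.279 RPKM in Sox100B-RNAi and 3.45, 2.65, 4.77, 2.49 and 3.85 RPKM in ESG, and no library of the groups overlapped.

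Across the 3 comparisons 53 of the 103 genes were past the limma thresholds at least once and 50 were not. The share of all genes past them at least once was not counted. The 53 include genes past them only against ESG, where 33.7% (Sox100B-OE) and 25.3% (Sox100B-RNAi) of all genes tested were called. Of the 50, 8 passed the filter on low values in none of the comparisons. CG14374 was one of these, with 0, 0 and 0.598 RPKM in the libraries labelled Sox100B-OE and 0.249, 0.0938 and 0 RPKM in Sox100B-RNAi. Abundant EE genes were also among those not called between the Sox100B groups, as CG14989 with 139.9, 155 and 142 RPKM in the libraries labelled Sox100B-OE and 129, 138 and 95.5 RPKM in Sox100B-RNAi (0.28 ± 0.21, SE, adjusted p = 0.349). In the row of 4 genes on 3L, CG42826 was lower in the libraries labelled Sox100B-OE (-1.18 ± 0.17, SE, adjusted p = 0.00112), and CG14160, CG32053 and CG32054 had 0.44, -0.36 and -0.44 on the log2 scale and were not called.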

How the data were processed

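The authors deposited 1 table of RPKM values with 17 columns, 1 for each library, and the submitters' processing notes name BDGP6, STAR, featureCounts 1.6.3 and DESeq2. The read total behind the RPKM is not given in the sources used here. For 98.1 to 98.5% of low values the product of RPKM and exonic length was a whole number of 1 common step (within 0.05), which gave the implied read totals. They served to describe depth, and cover counting error only. Symbols, positions and exonic lengths came from the Ensembl annotation of BDGP6, which 17215 of 17489 rows matched. A row left blank in the wild type columns was dropped.

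The genes and gene lists were chosen with earlier results of these data known. Groups came from the labels. Each Sox100B comparison was fitted with limma 3.58.1 in R 4.3.3 (lmFit, eBayes with a trend, 2-sided, Benjamini-Hochberg over all genes tested) on log2(RPKM + 1), with its own groups only, for genes that reached 1 RPKM in 3 or more libraries. A fold change on this scale understates that of low genes. Calls required an adjusted p under 0.01 with a log2 fold change beyond 0.5 either way, and errors are limma standard errors (SE). EE was not tested against EC or ESG, because the choice of the genes used them, and for the same reason fits against ESG give the genes no p-value.

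The genes named were the 10 highest in EE, the 10 with the highest ratio, those called between the Sox100B groups, the 5 largest changes in each direction over ESG, those at the thresholds and those within 20 kb of another. Alternatives were no filter, a filter at 3.5 RPKM, a pseudocount of 0.1, median-of-ratios scaling, scaling to nuclear reads, genes sharing no exonic base, 1 fit of 17 libraries, a replicate block, subsets of ESG, an adjusted p below 0.05, leaving out each library, and for the choice of genes folds of 4 and 16 and EE minimums of 5 and 20 RPKM. The fit was tested on simulated data with 200 genes changed 4-fold at a dispersion of 0.05, where it called 198 of the 200 for Sox100B-OE against Sox100B-RNAi among 8558 genes. Promoter and protein sequences were not analysed here.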

Additional observations from a re-analysis of the deposited data

Results flagged for a closer look

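In 61 genes named, the 5 ESG libraries were checked for 1 library far from the others (Dixon's test at 95%), which chance alone flags in about 1 of 20. In 9 of them 1 library stood apart. The ESG library that stood apart was ESG 1 for CG14292 at 25.8 RPKM and for CG33109 at 18.6 RPKM. It was ESG 2 for CG10911 at 80.7 RPKM, for CG5002 at 1.11 RPKM and for CG8249 at 3.46 RPKM, and ESG 3 for CG14591 at 5.75 RPKM and for CG6908 at 0.942 RPKM. ESG 4 stood apart for CG30339 at 13.4 RPKM and ESG 5 for CG31097 at 0.899 RPKM. All 9 were the highest ESG library of their gene.

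In 23 genes the effect against ESG differed between the libraries labelled Sox100B-OE and Sox100B-RNAi, by the limma test between these groups, and at least 1 of the 2 effects was past the limma thresholds. The effects against ESG are a description, because ESG levels entered the choice of the genes. The log2 fold changes of the libraries labelled Sox100B-OE over Sox100B-RNAi were positive for CG5002 (3.59), CG40498 (2.14), CG12824 (2.03), CG12825 (2.01), CG34045 (1.93), CG9826 (1.90), CG5191 (1.87), CG44247 (1.43), CG12910 (1.12), CG31097 (1.01) and CG3955 (0.96). They were negative for CG14292 (-3.42), CG10621 (-3.19), CG8249 (-2.62), CG30339 (-2.55), CG42249 (-2.11) and CG45116 (-1.72). They were negative as well for CG30148 (-1.53), CG2930 (-1.48), CG9312 (-1.45), CG11149 (-1.18), CG13575 (-1.14) and CG7381 (-1.09). Over ESG, CG5191 and CG12910 were past the thresholds as higher in both groups, CG11149 and CG30148 lower in the libraries labelled Sox100B-OE, and CG40498 lower in Sox100B-RNAi. The other 18 were past them as higher in 1 of the 2 groups.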

How the results depend on the processing

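Leaving out 1 library gave 12 to 32 for Sox100B-OE over Sox100B-RNAi, 9 to 30 for Sox100B-OE over ESG and 6 to 20 for Sox100B-RNAi over ESG, where fewer samples were tested. Over all genes it gave 509 to 1281, 1037 to 3219 and 625 to 2149 calls in the same comparisons, and medians of the set of 0.074 to 0.53, 0.40 to 0.56 and 0.17 to 0.40. The choice itself gave 102 to 120 genes. With no filter 22 (Sox100B-OE over Sox100B-RNAi) and 13 (Sox100B-RNAi over ESG) genes of the set were called. With a filter at 3.5 RPKM 25, 15 and 10 were called and the medians were 0.55, 0.73 and 0.53, with fewer genes tested. With genes that share no exonic base the set had 11 calls for Sox100B-OE over ESG and 6 for Sox100B-RNAi over ESG, and all genes had 705 and 187 calls. For Sox100B-OE over ESG the median of the set was 0.26 under median-of-ratios scaling, 0.25 after scaling to nuclear reads and 0.74 against ESG 4 and 5, and against these 2 libraries 13 genes of the set were called for Sox100B-RNAi. At an adjusted p below 0.05, 40 genes of the set were called for Sox100B-OE over ESG and 31 for Sox100B-RNAi over ESG, and 2561 genes in all for Sox100B-OE over Sox100B-RNAi. A fold of 4 chose 170 genes and a fold of 16 chose 56. The cause of these changes was not tested beyond the numbers of samples and genes. Over all genes tested, Sox100B-OE over ESG had 2578 higher and 431 lower calls as reported, 2127 and 937 under median-of-ratios scaling, and 2259 and 809 after scaling to nuclear reads.

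Samples with the same replicate number did not deviate together in every pair (r of 0.36, 0.04 and 0.18 for Sox100B-OE with Sox100B-RNAi). The labels do not say whether the number pairs them, and these values do not settle it. With the replicate number as a block 41, 23 and 19 genes of the set were called in the comparisons as ordered above. For single genes, 1027 values under an alternative kept their side of the threshold, 285 fell short of it in the same direction, and 0 reversed. These values cover only genes already called, in alternatives where they passed the filter, which favours the same direction. They include calls against ESG and genes that passed the filter only through their high group. The counts are therefore no sign of stability.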
